A study of Mus musculus with 14 samples.

Results

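Thioglycollate-elicited macrophages of the mouse peritoneum were compared with the macrophages resident there, both without added interleukin-4. The comparison took 6 of the 14 arrays of the series: 3 from C57BL/6 mice given 4% thioglycollate medium (2 ml, Thio) and 3 from C57BL/6 mice given PBS vehicle (PBS), each by injection into the peritoneum. The arrays were taken by their treatment label. All 6 samples were sorted by flow cytometry as positive for CD11b and F4/80 before RNA extraction, so both groups passed the same gate. The remaining 8 arrays, 4 from mice given IL-4 complex (IL-4, 5 µg, bound to the antibody 11B11, 25 µg) and 4 from mice given the complex with thioglycollate, helped only to estimate the spread and to place the slides. The labels give no age, no sex and no time between injection and sorting. They call each array a replicate without saying whether the cells came from separate animals, so p-values here measure only the spread between these samples.

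The resident macrophages of the peritoneal cavity are long-lived cells that depend on the transcription factor GATA6, clear dying cells and stay in place by self-renewal. Thioglycollate medium is an irritating broth: blood monocytes enter the cavity in response and mature there over days into large, strongly phagocytic macrophages. Elicited cells are widely used as a convenient source of macrophages.

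The arrays carried a single dye, and each value is the log2 of a probe's processed intensity relative to the 75th percentile of its own array, called its level below. A level of 0 is therefore a probe at that percentile, and levels of different genes cannot be set against each other. A difference is the mean level in Thio minus that in PBS, on the log2 scale, with the standard error (SE) of limma's fit over all 14 arrays and 3 arrays in each group, and a call means an adjusted p under 0.05 (Benjamini-Hochberg over 20343 genes). The 75th percentile of intensity was 1275.4 to 1818.5 for PBS and 2294.4 to 3578.3 for Thio. The 3 PBS arrays and Thio 1 lay on one slide, slide 1, while Thio 2 and Thio 3 lay on another, slide 2. Thio 1 stood apart from Thio 2 and 3: across 20159 genes it correlated with them at 0.848 and 0.865, and with the PBS arrays at 0.917 to 0.931, while Thio 2 and 3 correlated at 0.984. Treatment and slide cannot be told apart on Thio 2 and 3. Most differences are therefore followed by that of Thio 1 alone against the PBS arrays of its own slide. It was tested in a separate fit of the 8 slide 1 arrays, which assumed that the lone Thio array varied like the PBS and IL-4 complex arrays. A value given for Thio 1 is this difference, and a gene is said to be called there by the adjusted p of that fit.

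In all, 9052 of 20343 genes were called, 44.5% of them: 20.2% were higher in Thio and 24.2% lower. On slide 1, Thio 1 differed from PBS at 33.6% of 20324 genes, 18.1% higher and 15.5% lower. The calls of these fits overlapped only in part, and many genes called in one were not called in the other. The median difference over all genes was -0.09, and 0.04 for Thio 1 alone. Over 20251 genes with a value on every array, all 3 Thio arrays lay above all 3 PBS arrays for 19.1% and below them for 23.4%. Counts of called members below are read against these shares, since a share near them says nothing about the list. The shares varied with level. Of 874 genes with a mean level above 4, 201 were higher and 400 lower. Of 4308 genes from -4 to -2, 836 were higher and 773 lower. A list of bright genes can thus show more falls than the share over all genes. Lists were not compared with genes of similar level. The lists and the genes named are a selection from a rule, described with the processing. Members, lists and rule were chosen with earlier results of these data known, so the counts describe the lists and do not test them. In bulk samples such as these, fewer cells of a type and less RNA per cell cannot be told apart.

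The genes of the gate were present in both groups but lower in Thio. Adgre1, which encodes F4/80, had levels of 6.44, 6.61 and 6.58 on the PBS arrays and 4.77, 4.68 and 4.75 on Thio 1, 2 and 3. It fell by 1.81 (SE 0.10, adjusted p = 6.6e-08), and Thio 1 alone gave -1.78 (adjusted p = 8.3e-05). Itgam, which encodes CD11b, fell by 1.81 (SE 0.11, adjusted p = 1.9e-07), with -1.63 on Thio 1. Neither gene's arrays overlapped between the groups. Csf1r, the receptor for the growth factor that macrophages need to survive, was lower by a smaller amount, with a difference of -1.31 (SE 0.14, adjusted p = 1.8e-05) and -0.96 (adjusted p = 0.0014) for Thio 1. Spi1, the myeloid master regulator PU.1, differed by -0.41 (SE 0.17, adjusted p = 0.061), with -0.04 on Thio 1. Mertk, a receptor for dying cells, differed by -0.49 (SE 0.19, adjusted p = 0.054), with -0.20 on Thio 1. Neither was called. These 5 genes were well above background on all 6 arrays.

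Genes of the resident program were lower almost throughout. Of 28 genes of resident peritoneal macrophages 26 fell and 2 rose, with a median difference of -5.54, and Thio 1 alone gave the same counts, 26 lower and 2 higher, with a median of -5.62. The summed intensity of the list, in units of the array's 75th percentile, was 1850 to 2050 in PBS and 161 to 218 in Thio. Gata6, the transcription factor that maintains these cells, had levels of 3.10, 3.14 and 3.13 on the PBS arrays and -2.04, -3.50 and -2.90 on Thio 1, 2 and 3. The PBS arrays were almost equal and every Thio array lay far below them, with Thio 1 the least low. Its difference was -5.94 (SE 0.39, adjusted p = 3.3e-07), and -5.17 (adjusted p = 9.5e-06) for Thio 1 alone.

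Secreted and surface products of the resident cell went down with it. Timd4, a receptor for phosphatidylserine on dying cells, had levels of 4.64, 5.12 and 5.27 on the PBS arrays and -2.98, -1.12 and -1.02 on Thio 1, 2 and 3. It fell by 6.72 (SE 0.41, adjusted p = 1.8e-07), with Thio 1 below Thio 2 and 3 and -7.98 from PBS. Prg4, which encodes the lubricant lubricin, had levels of 7.36, 7.46 and 7.70 on the PBS arrays and -1.22, -1.24 and -0.39 on Thio 1, 2 and 3. Its difference was -8.45 (SE 0.23, adjusted p = 4.6e-10), and -8.72 (adjusted p = 1.8e-06) for Thio 1, while its other probe differed by -4.41. Ltbp1, which holds latent TGF-beta in the matrix, went from 4.51, 4.72 and 4.63 in PBS to -4.77, -5.14 and -4.65 on the Thio arrays, a difference of -9.47 (SE 0.28, adjusted p = 6.4e-10) and of -9.39 on Thio 1. Tgfb2, a TGF-beta ligand, fell by 7.33 (Thio 1, -8.29). The chemokine gene Cxcl13, which draws B cells into the cavity, fell by 10.13 (SE 0.34, adjusted p = 1.8e-09) with -11.19 on Thio 1.

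**Figure D1:**
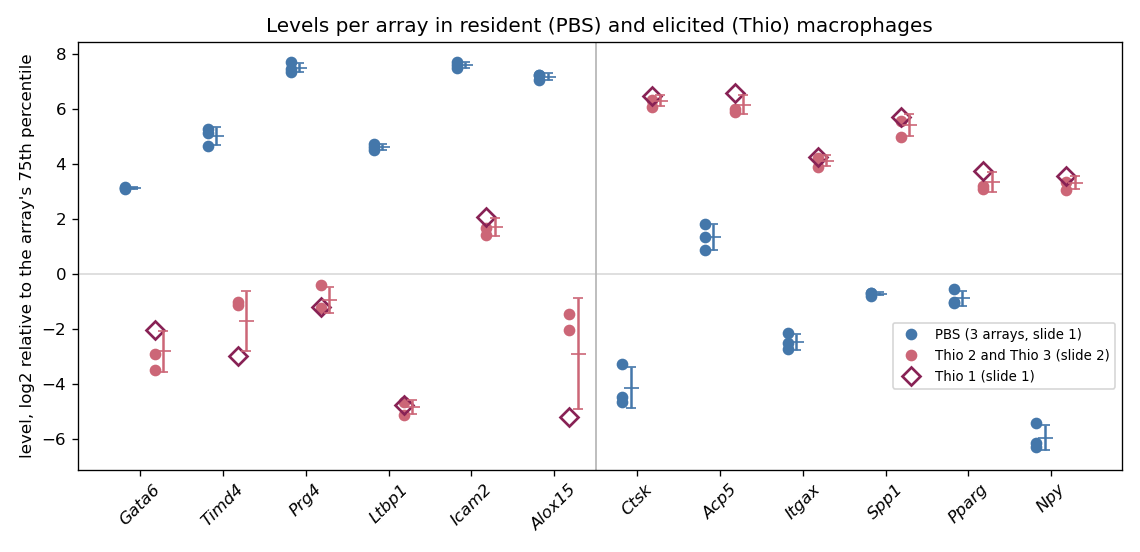
Level on each array (log2 relative to the array's 75th percentile) for 6 genes that fell and 6 that rose, with the mean and SD of 3 arrays beside the points of each group. Filled circles are PBS and Thio 2 and 3, and the open diamond is Thio 1, the Thio array on the slide of the PBS arrays. It lies on the Thio side for all 12 genes, and for Alox15 and Timd4 it lies below Thio 2 and 3. The PBS points of Npy were not well above background.

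Adhesion and clotting genes of the resident cell fell too. Icam2, an adhesion molecule used to gate resident macrophages, had levels of 7.50, 7.61 and 7.71 on the PBS arrays and 2.06, 1.42 and 1.66 on Thio 1, 2 and 3. It fell by 5.89 (Thio 1, -5.55), with a gap of several units between the groups. F5, coagulation factor V, fell by 6.67, with -6.58 on Thio 1 and -7.04 on its other probe. Selp, which encodes P-selectin, fell by 4.27 (SE 0.45), with -5.72 on Thio 1, whose level of -1.12 lay below the 1.30 and 0.82 of the other Thio arrays. Serpinb2, an inhibitor of plasminogen activators, fell by 8.37 with -9.15 on Thio 1. Its relative Serpinb10, which was on no list, fell by 8.95 (Thio 1, -8.12). Garnl3 fell by 7.21 (Thio 1, -8.16).

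The 2 members that rose were Cd93 and Wt1. Cd93, a lectin-like receptor of myeloid cells and endothelium, had levels of 5.12, 5.20 and 5.32 on the PBS arrays and 6.35, 5.85 and 5.89 on Thio 1, 2 and 3, a difference of 0.82 (SE 0.19, adjusted p = 0.0045) and of 1.13 (adjusted p = 0.0098) for Thio 1. Wt1, a transcription factor also known from the mesothelium that lines the cavity, never stood well above background in PBS and was at least 4.6-fold higher with thioglycollate (adjusted p = 7.1e-06). Bounds of this kind set the bright group's mean against the lowest signal that passed for well above background on the dim arrays. In the mesothelial and stromal marker list, which holds Wt1 itself, 7 of 14 genes rose, Wt1 among them. None fell, while 2 fell when Thio 1 was left out. The 13 members other than Wt1 had a summed intensity of 1.99 to 2.23 in PBS and 3.2 to 5.06 in Thio. Of its defining markers, Col1a1 did not stand well above background in PBS, Upk3b did so on 1 of 3 arrays and Msln on 2. All 3 markers were well above background on every Thio array. The part of such cells in the difference of Wt1 was not tested.

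Transcription factors of the wider macrophage list went both ways, 9 of 39 rising and 15 falling, with 14 rising and 13 falling for Thio 1 alone. Pparg, the nuclear receptor that senses fatty acids, had levels of -1.03, -1.06 and -0.56 on the PBS arrays and 3.76, 3.20 and 3.07 on Thio 1, 2 and 3. Its difference was 4.23 (SE 0.27, adjusted p = 2.1e-07), and 4.64 (adjusted p = 0.00013) on Thio 1. The oxysterol receptor gene Nr1h3 (LXR alpha) was even between arrays, at -0.08, 0.08 and -0.02 on the PBS arrays and 3.87, 3.62 and 3.70 on Thio 1, 2 and 3, and rose by 3.74 (SE 0.10, and 3.87 for Thio 1). Egr2 rose by 3.21 (Thio 1, 3.32). Besides Gata6, the largest falls were those of Id1, an inhibitor of helix-loop-helix factors, at -4.11 (Thio 1, -4.59), and Klf2, a factor associated with quiescence, at -3.47 (Thio 1, -3.58). The median of the list was -0.09, the same as over all genes, and its sign turned in the authors' deposited table (0.08).

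Genes of cell fusion and of the osteoclast, the multinucleate bone-resorbing relative of the macrophage, rose. Of 24 such genes 17 rose and 5 fell (median 1.65), and for Thio 1 alone 14 rose and 2 fell. The summed intensity of the list was 272 to 319 in PBS and 722 to 746 in Thio. Ctsk, the collagen-degrading protease of the osteoclast, had levels of -4.64, -4.49 and -3.27 on the PBS arrays and 6.48, 6.34 and 6.09 on Thio 1, 2 and 3. It was the largest rise in the list with a signal in both groups, 10.43 (SE 0.35, adjusted p = 1.7e-09), a 1384-fold difference, and 10.61 (adjusted p = 7.6e-05) for Thio 1 alone.

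Atp6v0d2, a proton pump subunit required for osteoclast fusion, never stood well above background in PBS and was at least 1460-fold higher with thioglycollate (adjusted p = 1.8e-08; slide 1, 0.00024). Dcstamp, the membrane protein that drives cell fusion, was likewise dim in PBS and at least 27.4-fold higher (adjusted p = 3e-06; slide 1, 0.0016). Acp5, the tartrate-resistant acid phosphatase that marks osteoclasts, had levels of 1.81, 1.34 and 0.86 on the PBS arrays and 6.56, 6.01 and 5.90 on Thio 1, 2 and 3, a difference of 4.82 (SE 0.29, adjusted p = 1.5e-07) and of 5.22 (adjusted p = 0.00014) on Thio 1. Spp1, which encodes osteopontin, rose by 6.14 (Thio 1, 6.42). The falls were led by Cd81, a tetraspanin that restrains fusion in macrophages, at -3.58 (Thio 1, -3.65), and Mmp9 at -1.22 (Thio 1, -1.50). The probes of Itgb3, the beta subunit of the osteoclast vitronectin receptor, disagreed. Its brightest probe fell by 1.02 (adjusted p = 0.0034), its other probe differed by 1.18, and Thio 1 alone was not called (-0.68, adjusted p = 0.14).

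Lysosome genes were higher on balance. Of 38 measured 22 rose and 7 fell, with a median of 0.79, and on Thio 1 alone 27 rose and 2 fell. The largest rise was that of Atp6v1c1, a subunit of the proton pump, at 3.43 (SE 0.12, adjusted p = 3e-09, and 3.46 for Thio 1). Cd63, a tetraspanin of the lysosomal membrane, had levels of 3.88, 4.27 and 3.85 on the PBS arrays and 7.03, 6.65 and 6.52 on Thio 1, 2 and 3 and rose by 2.73 (Thio 1, 3.03). Atp6v0a1, another pump subunit, rose by 2.49 (Thio 1, 2.92). Among the falls, Laptm5 had levels of 5.57, 5.68 and 5.62 on the PBS arrays and 5.27, 3.95 and 3.85 on Thio 1, 2 and 3, so that Thio 1 lay close to PBS. It fell by 1.27 (adjusted p = 0.0047), while Thio 1 alone was not called (-0.35, adjusted p = 0.063). The mannosidase gene Man2b1 fell by 1.33 with -1.17 on Thio 1. Over the scaling alternatives 20 to 30 lysosome genes rose and 5 to 7 fell.

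Upstream sequences of these 2 lists were searched because members of each moved together. The letters were TCACATG, the core of the M-box bound by MITF, and TCACGTG, the E-box core of the element bound by its relatives TFEB and TFE3, on both strands of the 250 bases before the RefSeq start (build GRCm38.p6). The 2 words differ at 1 letter and do not overlap. The E-box was in 8 of 30 lysosome promoters found in the table, 26.67%, against 4.48% of the 16133 promoters of genes measured here and 3.58% of all 27025. In the fusion list the E-box was in 1 of 15 promoters, 6.67%. The M-box was in 2 of 30 lysosome promoters and in 2 of 15 of the fusion list, against 3.28% of measured genes. These shares depend on the members chosen for the lists and not on the array values. The promoters of 4 genes that rose are shown to place the words, which are in capitals, with the strand of the gene and the coordinates of the window. Acp5 (chr9:22130599-22130848, minus strand) holds the M-box 91 bases before the start. Atp6v1a (chr16:44139260-44139509, minus strand) and Ctsa (chr2:164833523-164833772, plus strand) hold the E-box, 132 and 13 bases before it, and Mcoln1 (chr8:3500269-3500518, plus strand) holds it at 72 and again at 46 bases.
Acp5: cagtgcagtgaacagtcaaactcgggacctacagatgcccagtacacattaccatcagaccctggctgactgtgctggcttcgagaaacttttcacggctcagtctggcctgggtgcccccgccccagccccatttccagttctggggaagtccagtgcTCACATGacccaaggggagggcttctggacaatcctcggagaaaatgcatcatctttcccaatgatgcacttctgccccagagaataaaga
Atp6v1a: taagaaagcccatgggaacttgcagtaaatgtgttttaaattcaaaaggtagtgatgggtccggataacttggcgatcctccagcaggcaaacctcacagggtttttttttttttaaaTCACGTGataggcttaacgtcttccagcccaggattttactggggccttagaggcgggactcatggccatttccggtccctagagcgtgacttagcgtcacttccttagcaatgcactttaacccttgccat
Ctsa: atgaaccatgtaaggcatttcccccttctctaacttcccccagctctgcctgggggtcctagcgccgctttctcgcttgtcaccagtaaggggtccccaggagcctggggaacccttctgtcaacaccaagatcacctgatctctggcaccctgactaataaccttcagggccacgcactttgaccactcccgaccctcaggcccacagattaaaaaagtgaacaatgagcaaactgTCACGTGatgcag
Mcoln1: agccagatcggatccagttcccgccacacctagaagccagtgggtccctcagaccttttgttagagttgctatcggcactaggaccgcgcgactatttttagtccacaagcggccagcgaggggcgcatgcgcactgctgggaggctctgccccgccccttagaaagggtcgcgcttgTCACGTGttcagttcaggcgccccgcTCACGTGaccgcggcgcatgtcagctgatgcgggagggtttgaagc

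The genes with these words did not all rise. Atp6v1a, a catalytic subunit of the pump, had levels of 3.09, 3.28 and 3.27 on the PBS arrays and 5.74, 5.27 and 5.29 on Thio 1, 2 and 3 and rose by 2.22 (Thio 1, 2.52). Ctsa, the protective protein cathepsin A, had levels of 4.75, 4.30 and 4.89 on the PBS arrays and 7.28, 6.96 and 6.85 on Thio 1, 2 and 3 and rose by 2.38 (Thio 1, 2.63). Mcoln1, the calcium channel of the lysosome, rose by 1.15 (Thio 1, 1.32). Clcn7, the chloride carrier of the lysosome with an E-box, rose by 1.22 (Thio 1, 1.54), and Atp6v0c, with an M-box, by 1.13 (Thio 1, 1.45). In contrast, Glb1, the lysosomal beta-galactosidase, fell by 1.08 (Thio 1, -0.85). Ctsd and Gaa differed by 0.33 and 0.16 without being called (adjusted p = 0.13 and 0.42), while Thio 1 alone lay higher, at 0.74 and 0.51. Gla, with both words, differed by -0.68 and Lamp1, a main membrane glycoprotein of the lysosome, by -0.33. Both were called, but neither was on Thio 1 (-0.35 and -0.08; adjusted p = 0.11 and 0.65), and both signs turned under quantile normalization (0.11 and 0.45). Oscar, with an M-box, differed by 1.65 (SE 0.63, adjusted p = 0.05, and 2.15 for Thio 1) and was not called.

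**Figure D2:**
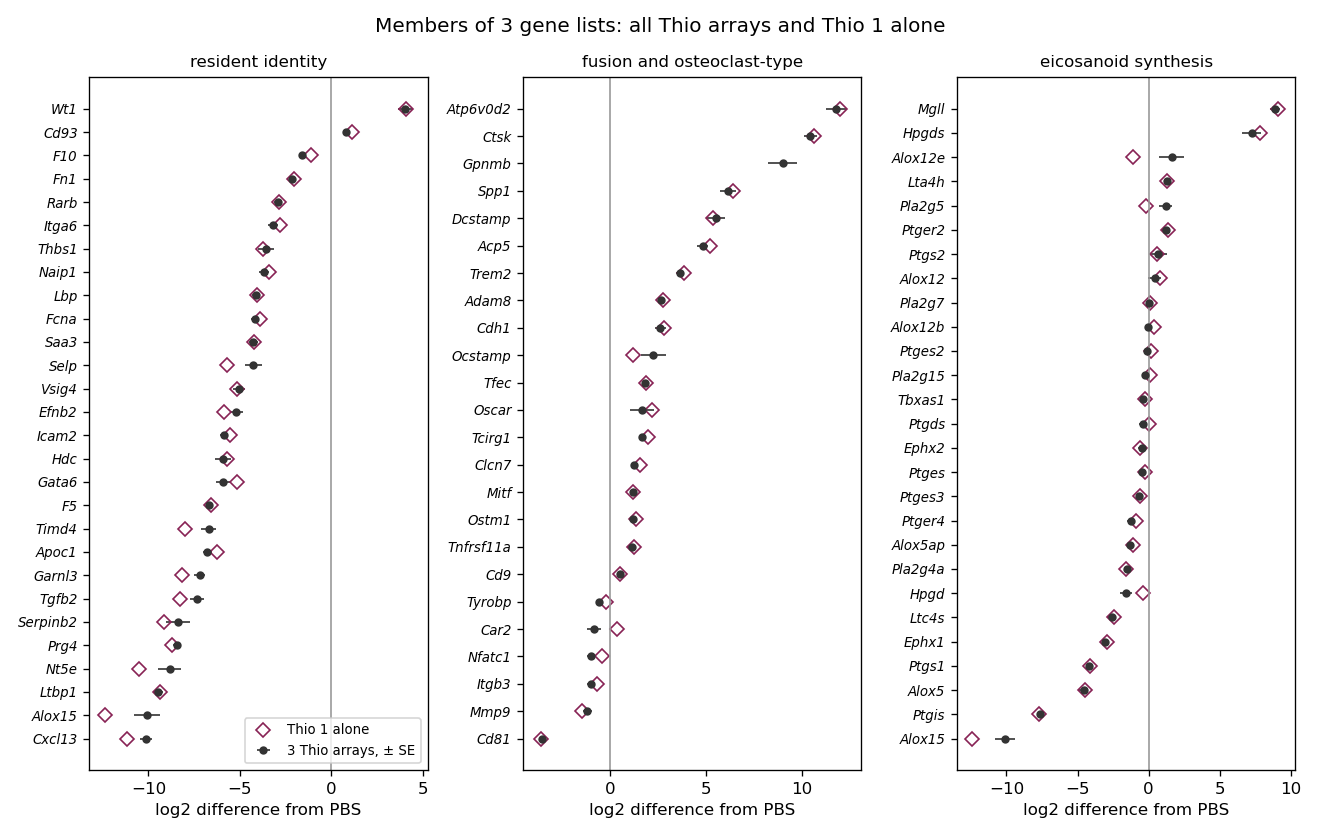
Difference from PBS (log2) for each measured member of 3 gene lists, with black points for the 3 Thio arrays and bars of 1 SE, and open diamonds for Thio 1 alone. Almost all resident genes lie left of 0 on either measure, and the fusion and osteoclast-type genes lie mostly right of 0. Gpnmb has no value for Thio 1 because its spot was left out, and the position of genes dim in PBS, such as Atp6v0d2, depends on signals near the floor.

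Genes of lipid handling were also higher on balance. Of 23 genes of lipid uptake, storage and efflux 11 rose and 4 fell (median 0.57), and Thio 1 alone gave 12 and 4. After Pparg and Nr1h3 the largest rise was that of Nceh1, which releases cholesterol from its stored esters, from 2.20, 2.43 and 2.23 in PBS to 5.39, 5.00 and 5.00 in Thio, a difference of 2.85 (SE 0.18, adjusted p = 2e-07) and of 3.10 on Thio 1. Msr1, the class A scavenger receptor that takes up modified lipoprotein, fell by 2.45 (Thio 1, -2.32), and Mylip, which marks the LDL receptor for breakdown, by 1.59 (Thio 1, -1.77). Apoe was bright in both groups and fell by 1.15 (Thio 1, -0.75), a call that was lost under quantile normalization (-0.15).

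Cholesterol synthesis genes rose in 14 of 24 cases and fell in none, with a median of 0.65. On Thio 1 alone the counts were the same and the median 0.88, while 4 fell when Thio 1 was left out. Sc5d, a late enzyme of the pathway, had levels of 0.26, 0.35 and 0.17 on the PBS arrays and 1.99, 2.02 and 2.00 on Thio 1, 2 and 3, close together within each group. Its difference was 1.74 (SE 0.13, adjusted p = 7.7e-07), and 1.73 on Thio 1. The squalene epoxidase gene Sqle rose by 2.59 (SE 0.35, and 2.80 for Thio 1). The probes of Srebf2, which switches the pathway on when sterol is short, differed by 3.28 and 0.27, so its size is uncertain.

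Enzymes and receptors of the lipid mediators made from arachidonic acid were lower on balance. Of 27 such genes 5 rose and 13 fell, and on Thio 1 alone 4 rose and 9 fell. Alox15, the lipoxygenase of resident peritoneal macrophages, had levels of 7.25, 7.24 and 7.05 on the PBS arrays and -5.21, -1.45 and -2.05 on Thio 1, 2 and 3. It fell by 10.08 (SE 0.70, adjusted p = 4.9e-07), with -12.39 on Thio 1, whose level was well below those of Thio 2 and 3. Eosinophils also express Alox15. The 5 eosinophil markers that no macrophage list holds had a summed intensity of 2.11 to 2.4 in PBS and 0.68 to 2.02 in Thio, the 2.02 being Thio 1. Of the 8 in the list, Alox15 and Siglecf among them, 2 rose and 5 fell, with 2 to 3 falling when any array but Thio 1 was left out. The median of the list was -1.10, and -0.04 for Thio 1 alone. Besides Alox15 the falls were those of Prg2, Il5ra, Ear6 and Prg3, which stood at -0.21, -0.32, -0.13 and 0.19 on Thio 1. The defining marker Epx was not well above background in PBS. The part of eosinophils in the fall of Alox15 was not tested.

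Ptgis, which makes prostacyclin, had levels of 5.95, 6.13 and 5.91 on the PBS arrays and -1.70, -1.93 and -1.39 on Thio 1, 2 and 3. The groups were far apart and the arrays close within each, with a difference of -7.67 (SE 0.18, adjusted p = 3.3e-10) and of -7.70 (adjusted p = 2.5e-06) on Thio 1. Alox5, the entry enzyme of leukotriene synthesis, fell by 4.56 (Thio 1, -4.46), whereas Lta4h, which makes leukotriene B4, rose by 1.27 (Thio 1, 1.31). Mgll, the lipase that frees fatty acid from monoacylglycerols, also rose (adjusted p = 4.2e-09). The brightest of its 4 probes never stood well above background in PBS, with a rise of at least 138-fold to Thio levels of 1.79, 1.93 and 1.14, while the other 3 differed by 1.36 to 7.79, so the size of its rise is uncertain. Hpgds, which makes prostaglandin D2, rose by 7.24 (SE 0.68, and 7.86 for Thio 1). It stood well above background in PBS on only 1 of 3 arrays, so this size is uncertain too. Of 9 mast cell markers 6 fell and none rose, with a median of -1.28 (Thio 1, -1.03). The 7 outside the macrophage lists had a summed intensity of 6.28 to 7.62 in PBS and 2.41 to 4.51 in Thio, the 4.51 being Thio 1. The part of mast cells in these differences was not tested.

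Among 24 chemokine ligands 6 rose and 8 fell, and on Thio 1 alone 4 rose and 8 fell. The largest rises were those of monocyte attractants, with Ccl4 at 4.37 (SE 0.33, and 4.54 for Thio 1), Ccl7 at 4.02 (SE 0.25, and 3.98 for Thio 1) and Ccl8 at 3.87 (SE 0.24, and 3.84 for Thio 1). After Cxcl13 the falls were led by the eosinophil attractant Ccl24, from 4.69, 4.85 and 4.50 to -1.05, -1.69 and -0.67, a difference of -5.82 (SE 0.22, adjusted p = 4.8e-09) and of -5.74 on Thio 1. Cxcl12, the ligand of CXCR4, fell by 3.75 (Thio 1, -5.06). Its receptor gene Cxcr4 went the other way, from -2.53, -2.65 and -2.19 in PBS to 1.07, 0.73 and 1.09 in Thio, a rise of 3.42 (Thio 1, 3.53).

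Receptors for chemoattractants were also divided, 7 of 20 rising and 9 falling, with 6 and 7 on Thio 1 alone. Ccr2, the receptor by which monocytes leave the blood, had levels of -0.28, 0.27 and 0.07 on the PBS arrays and 1.62, 1.04 and 1.25 on Thio 1, 2 and 3. All Thio arrays lay above all PBS arrays, with a difference of 1.28 (SE 0.28, adjusted p = 0.0032) and of 1.61 (adjusted p = 0.037) for Thio 1. Cx3cr1, a marker of patrolling monocytes and many tissue macrophages, rose by 0.69 (adjusted p = 0.02, and 1.25 for Thio 1), and its other probe by 2.35. Without PBS 2 it was not called (adjusted p = 0.075). Both formyl peptide receptor genes fell, with Fpr1 at -4.47 (Thio 1, -3.61) and Fpr2 at -3.78 (SE 0.81, and -5.01 for Thio 1). Ackr3, a scavenging receptor for CXCL12, fell by 5.08 (SE 0.81, and -4.15 for Thio 1), with Thio 2 at -5.37 and the other Thio arrays at -2.48 and -2.39. Cxcr3 rose by 2.48 (Thio 1, 1.94).

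Genes that mark monocytes and small macrophages of the cavity had no common direction. Of 23 measured 6 rose and 10 fell, and on Thio 1 alone 6 and 9, while Ly6c2 had no named probe. The largest rise was that of Itgax, which encodes CD11c, with levels of -2.74, -2.16 and -2.53 on the PBS arrays and 4.26, 4.22 and 3.88 on Thio 1, 2 and 3, a difference of 6.60 (SE 0.23, adjusted p = 2e-09) and of 6.74 (adjusted p = 6.7e-05) on Thio 1. S100a6 rose by 2.24 (Thio 1, 2.34). In contrast, Lyz2, which encodes lysozyme, fell by 1.78 (Thio 1, -1.45), and Emilin2 fell by 3.08 (Thio 1, -2.97). Cd209a, a lectin of small peritoneal macrophages and dendritic cells, fell by 3.80 (Thio 1, -3.60). The dendritic cell list had 2 of 12 rising and 4 falling, or 1 to 2 falling without PBS 1, PBS 3, Thio 2 or Thio 3. Its 5 members outside the macrophage lists had a summed intensity of 84.9 to 117 in PBS and 51.9 to 80.7 in Thio. This sum leaves out the defining markers Flt3 and Zbtb46. All 3 defining markers gave signal in both groups, and none was lower over the Thio arrays. Flt3 rose by 1.99 (Thio 1, -0.09). Zbtb46 and Xcr1 differed by 1.43 and 0.27 (Thio 1, -0.29 and 0.995) without being called. The part of dendritic cells was not tested. Ace rose by 2.13, but lay at -1.08 on Thio 1 against 0.85 and 0.81 on Thio 2 and 3, and Thio 1 alone was not called (0.86, adjusted p = 0.35).

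**Figure D3:**
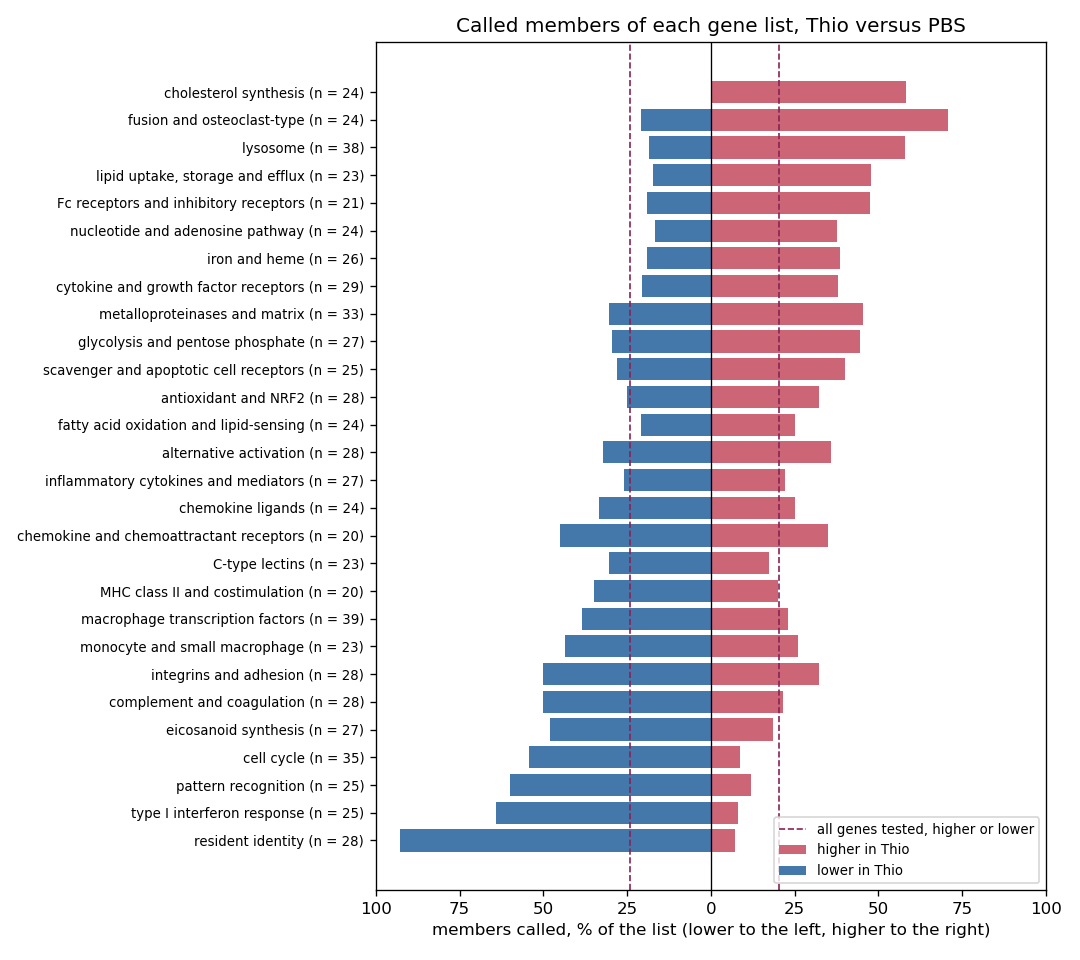
Share of each of the 28 lists of macrophage programs called higher (right) and lower (left) in Thio, in percent of the members measured, with the number of members in brackets and dashed lines at the shares over all 20343 genes, 20.2% higher and 24.2% lower. Of these 28 lists, fusion, cholesterol and lysosome genes reach furthest right, and resident genes, interferon response genes and pattern recognition genes furthest left.

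Inflammatory cytokines and mediators went either way, 6 of 27 rising and 7 falling, with 7 and 7 on Thio 1 alone and 11 rising when Thio 1 was left out. The median of the list was 0.24 and turned sign with normexp (-0.18) and in the authors' deposited table (-0.17). Il1rn, the antagonist of the interleukin-1 receptor, had levels of -4.04, -4.50 and -4.62 on the PBS arrays and 0.24, 0.11 and 0.50 on Thio 1, 2 and 3, a rise of 4.67 (SE 0.24, and 4.63 for Thio 1). Its agonist gene Il1a rose by 2.02 (SE 0.57, adjusted p = 0.015, and 2.16 for Thio 1), and was not called with slide as a block (adjusted p = 0.078). Il6 fell by 3.41 (Thio 1, -3.50), as did the acute phase genes Saa3 (-4.26, Thio 1 -4.25) and Hp (haptoglobin, -4.03, Thio 1 -4.07). Immediate early genes and heat shock genes, which respond to handling, also moved: 3 of 14 rose and 9 fell, with a summed intensity of 58.7 to 102 in PBS and 80.3 to 117 in Thio, and their part in these differences was not tested.

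Sensors of microbes were lower. Of 25 pattern recognition genes 3 rose and 15 fell (median -0.60), but on Thio 1 alone 4 rose and 7 fell with a median of -0.18. Without PBS 3, Thio 2 or Thio 3, 8 to 9 fell. Naip1, a sensor of bacterial secretion systems, fell by 3.69 (Thio 1, -3.41). Clec4e (Mincle), a receptor for mycobacterial glycolipid, had levels of 3.78, 4.06 and 3.84 on the PBS arrays and 0.93, 0.55 and 0.78 on Thio 1, 2 and 3 and fell by 3.14 (Thio 1, -2.96). Cd14, the co-receptor for lipopolysaccharide, fell by 2.08 (SE 0.38, and -1.90 for Thio 1). The rises were small and those of Tlr4 and Tlr6 were lost under median centring, with Tlr1 at 1.53 (Thio 1, 1.87), Tlr4 at 0.47 (Thio 1, 0.51, not called there) and Tlr6 at 0.40 (Thio 1, 0.47).

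Scavenger receptors and receptors for dying cells went either way, 10 of 25 rising and 7 falling, with 10 and 6 on Thio 1 alone. Marco, a scavenger receptor for bacteria and particles, had levels of 6.47, 6.43 and 6.52 on the PBS arrays and 1.35, 0.59 and 0.94 on Thio 1, 2 and 3. Its difference of -5.52 (SE 0.39, and -5.13 for Thio 1) was the lowest after that of Timd4. Pros1, a bridging ligand for MERTK, fell by 2.90 (Thio 1, -2.65). Itgb5, whose product binds MFG-E8 on dying cells, rose from -2.06, -1.82 and -1.74 to 4.53, 3.88 and 4.03 (6.02, SE 0.37, adjusted p = 1.8e-07, and 6.40 for Thio 1), and Cd300lf, a phosphatidylserine receptor, from -0.10, -0.32 and 0.14 to 5.48, 5.14 and 5.03 (5.30, SE 0.20, adjusted p = 4e-09, and 5.57 for Thio 1). Havcr2 (TIM-3), related to Timd4, rose by 4.37 (Thio 1, 4.51). The median of this list was 0.36 and turned sign with normexp (-0.02).

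Of 23 C-type lectin genes 4 rose and 7 fell (Thio 1 alone, 5 and 7). Cd209b (SIGN-R1), a lectin for bacterial polysaccharide, never stood well above background in Thio and was at least 65.7-fold lower there (adjusted p = 2.7e-08; slide 1, 6.3e-06). Mrc1, the mannose receptor, had levels of 1.55, 1.90 and 1.63 on the PBS arrays and 4.52, 4.30 and 4.22 on Thio 1, 2 and 3 and rose by 2.65 (Thio 1, 2.83). Among Fc and inhibitory receptors 10 of 21 rose and 4 fell (10 and 3). The sialic acid receptor gene Siglecf rose by 3.63 (Thio 1, 3.46), Cd200r4 by 2.55 (Thio 1, 2.51) and the paired receptor gene Pira2 by 2.39 (Thio 1, 2.61). Fcgrt, the neonatal Fc receptor, fell by 1.69 (Thio 1, -1.46) and Fcgr3 by 0.98 (Thio 1, -0.77).

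Receptors for cytokines and growth factors rose in 11 of 29 cases and fell in 6 (8 and 6 on Thio 1 alone). The largest rise was that of Il7r, the interleukin-7 receptor, with levels of -3.71, -4.33 and -5.20 on the PBS arrays and 4.79, 4.70 and 4.53 on Thio 1, 2 and 3. Its difference was 9.09 (SE 0.45, adjusted p = 3.2e-08), with the Thio arrays close together and 9.20 on Thio 1. T cells also carry this receptor. The other 13 T and NK cell markers had a summed intensity of 18.8 to 21.1 in PBS and 16 to 22 in Thio, the 16 being Thio 1, and of the whole list of 14 genes 2 rose and 4 fell, or 1 to 2 fell when any array but Thio 1 was left out. The defining marker Cd3g was well above background on 1 of 3 Thio arrays, and the part of such cells was not tested. Csf2rb2, which pairs with the interleukin-3 receptor, rose by 2.62 (Thio 1, 2.78), and the TNF receptor gene Tnfrsf1b by 1.58 (Thio 1, 1.89). Il6ra fell by 1.77 (Thio 1, -1.38).

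MHC class II and costimulation genes showed no common direction, 4 of 20 rising and 7 falling, with the same counts on Thio 1 alone. The class II gene H2-Aa differed by 0.42 (SE 0.28, adjusted p = 0.24, and 0.80 for Thio 1) and was not called. Cd83, a maturation marker that stabilises class II, had levels of -1.07, -1.23 and -1.62 on the PBS arrays and 4.53, 3.84 and 3.79 on Thio 1, 2 and 3. It rose by 5.36 (SE 0.27, adjusted p = 4.3e-08), and by 5.83 on Thio 1. Cd274 (PD-L1), which restrains T cells, rose by 2.42 (Thio 1, 2.51), while Cd86, an activating ligand, fell by 2.34 (Thio 1, -2.31) and the activating receptor gene Cd40 by 1.97 (Thio 1, -1.95). Cd1d1, which presents lipid antigen, fell by 2.67 (Thio 1, -2.59). B cells express several of these genes and their markers were lower too: 8 of 12 fell and 1 rose, with a summed intensity of 11.3 to 20.2 in PBS and 4.06 to 4.57 in Thio, and 4 to 5 fell without PBS 1, PBS 3, Thio 2 or Thio 3. All 3 defining markers gave signal on every array. Their part was not tested.

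Complement genes were lower on balance. Of 28 genes of complement and coagulation 6 rose and 14 fell (median -0.87), and on Thio 1 alone 5 and 13. Factor B, Cfb, had levels of 5.13, 5.02 and 5.65 on the PBS arrays and -0.84, -0.75 and -0.74 on Thio 1, 2 and 3, a difference of -6.05 (SE 0.17, adjusted p = 5.7e-10) and of -6.11 on Thio 1. C4b, the mouse gene of component C4, fell by 5.94 (SE 0.19, and -5.71 for Thio 1). Plau (urokinase) rose by 2.38 (SE 0.37, and 2.53 for Thio 1). Integrins and other adhesion genes rose in 9 of 28 cases and fell in 14 (7 and 9 on Thio 1 alone). Itga6, a laminin receptor subunit, had levels of 7.20, 7.42 and 7.20 on the PBS arrays and 4.47, 3.79 and 3.90 on Thio 1, 2 and 3 and fell by 3.22 (Thio 1, -2.80).

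Matrix genes and metalloproteinases changed in either direction, 15 of 33 rising and 10 falling, with the same counts on Thio 1 alone. Mmp12, the macrophage elastase, rose from -2.89, -2.26 and -2.03 to 4.16, 3.72 and 3.89 (6.31, SE 0.22, adjusted p = 2e-09, and 6.55 for Thio 1), and its other probe by 7.06. The collagenase genes Mmp8 and Mmp13 were not well above background in PBS and were at least 43.2-fold and 11.8-fold higher with thioglycollate (adjusted p = 2.4e-06 and 1e-05; slide 1, 0.0025 and 0.0064). Mmp8 is best known from neutrophils, and 5 of 12 neutrophil markers, Mmp8 itself among them, rose and 2 fell. The 9 neutrophil markers outside the macrophage lists, which leave out Mmp8, had a summed intensity of 3.8 to 4.68 in PBS. In Thio it was 8.69 to 17.2, the lowest value being that of Thio 1. The defining marker Ly6g had no named probe, while S100a8 rose by 1.84 (Thio 1, 1.75). S100a9 rose by 2.50 (SE 0.78), and Thio 1 alone lay lower, at 1.28. The median of the 12 neutrophil markers was 1.23, and 0.81 for Thio 1. Col1a1, a collagen of stromal cells, was at least 12.9-fold higher with thioglycollate, with the mesothelial and stromal list given above. The part of either cell type was not tested. Thbs1 (thrombospondin) fell by 3.56 (Thio 1, -3.72).

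Genes induced by type I interferon fell in 16 of 25 cases and rose in 2, with a median of -0.91, but on Thio 1 alone 5 were lower and none higher, with a median of -0.75. Leaving out PBS 3 or Thio 3 left 10 lower. Oas2, an antiviral RNA sensor, had levels of 3.65, 3.98 and 4.67 on the PBS arrays and 1.97, 2.05 and 2.05 on Thio 1, 2 and 3. The PBS arrays differed among themselves by more than the Thio arrays did, and the difference was -2.08 (SE 0.22, adjusted p = 1.6e-05), with -2.13 (adjusted p = 0.0066) on Thio 1. Isg20 fell by 1.80 (Thio 1, -1.60). Ifi44 fell by 3.39 (SE 0.80), from -4.30, -4.59 and -1.19 on the PBS arrays. PBS 3 lay far above the other 2, only 1 of 3 Thio arrays was well above background, and Thio 1 alone was not called (-2.55, adjusted p = 0.22). Oasl1 rose by 2.62 (SE 0.50, adjusted p = 0.0014), with PBS 3 again the highest of its group and Thio 1 alone at 2.86 (adjusted p = 0.053).

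Cell cycle genes fell in 19 of 35 cases and rose in 3, with a median of -0.96 (13 and 3 on Thio 1 alone). The largest falls were those of Ccnd1 and Ccnd3, D-type cyclins, which carry growth factor signals into the cycle. Ccnd1 had levels of 4.11, 3.79 and 3.47 on the PBS arrays and -1.04, 0.29 and -0.59 on Thio 1, 2 and 3, a difference of -4.23 (SE 0.32, adjusted p = 1e-06) and of -4.82 on Thio 1, and Ccnd3 fell by 2.72 (Thio 1, -2.48). Mki67, a marker of dividing cells, fell by 1.90 (SE 0.25, and -1.48, adjusted p = 0.017 for Thio 1), and Cdc6, which licenses replication, by 2.29 (Thio 1, -2.31). The rises were Pcna at 1.04 (Thio 1, 1.16), Cdt1 at 0.75 (Thio 1, 0.90) and Tyms at 1.88. Tyms lay at -1.82 on Thio 1 and at 0.15 and 0.12 on Thio 2 and 3, and Thio 1 alone was not called (adjusted p = 0.099).

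Genes of sugar metabolism went either way. Of 27 glycolysis and pentose phosphate genes 12 rose and 8 fell (13 and 4 on Thio 1 alone), and over the scaling alternatives 9 to 17 rose and 4 to 8 fell. The glucose transporter gene Slc2a1 had levels of -0.61, -0.70 and -0.65 on the PBS arrays and 3.34, 2.90 and 3.03 on Thio 1, 2 and 3, a difference of 3.74 (SE 0.23, adjusted p = 2e-07) and of 4.00 on Thio 1. Eno2, an enolase better known from neurons, rose by 5.85 (Thio 1, 5.98) and the aldolase gene Aldoc by 2.67 (Thio 1, 2.64). Slc2a6, another sugar transporter, fell by 1.67 (Thio 1, -1.56). Fatty acid oxidation genes had a median of 0.05, with 6 of 24 rising and 5 falling (7 and 2 on Thio 1 alone), 3 rising without PBS 1, PBS 3 or Thio 1, and 8 falling without Thio 1. Acadl, a dehydrogenase of the pathway, rose by 0.89 (Thio 1, 1.02), and Pdk4, which spares pyruvate, fell by 2.75 (SE 0.54), being well above background on 2 of 3 Thio arrays, with Thio 1 alone not called (-1.55, adjusted p = 0.12). Ppargc1a stood well above background in PBS on 2 of 3 arrays, and its probes differed by 4.08 and 0.72.

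Iron genes rose in 10 of 26 cases and fell in 5 (8 and 6 on Thio 1 alone), with 6 rising without PBS 1, PBS 2, Thio 2 or Thio 3. Tfrc, the receptor that takes up transferrin, had levels of -1.95, -1.71 and -2.33 on the PBS arrays and 0.79, 0.86 and 0.92 on Thio 1, 2 and 3 and rose by 2.85 (Thio 1, 2.78), and the heme exporter gene Flvcr1 rose by 2.72 (Thio 1, 2.90). Trf, which encodes transferrin itself, fell by 2.14 (Thio 1, -1.86), and Cp (ceruloplasmin), which oxidises iron for export, by 4.76 (Thio 1, -3.56). Antioxidant genes rose in 9 of 28 cases and fell in 7 (9 and 5), with 14 falling without Thio 1. Gstm1 rose by 2.32 (Thio 1, 2.35) and Srxn1, a target of NRF2, by 1.78 (Thio 1, 1.82). The glutathione reductase gene Gsr fell by 1.63 (Thio 1, -1.44), Prdx6 by 1.44 (Thio 1, -1.30) and Prdx5 by 1.33 (Thio 1, -1.05).

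In the nucleotide and adenosine pathway, Nt5e (CD73), which makes adenosine from AMP, fell from 3.43, 3.25 and 3.34 in PBS to -7.16, -4.92 and -4.43 in Thio (-8.84, SE 0.65, adjusted p = 7.5e-07). Thio 1 was not well above background, and its level was at least 722-fold below the mean of PBS. Over the whole list 9 of 24 genes rose and 4 fell (8 and 4 on Thio 1 alone). P2ry6, a receptor for UDP released by dying cells, had levels of 0.19, 0.43 and -0.01 on the PBS arrays and 3.80, 3.23 and 3.40 on Thio 1, 2 and 3 and rose by 3.28 (Thio 1, 3.60). The nucleoside transporter gene Slc29a1 rose by 2.15 (Thio 1, 2.37) and the ATP-gated channel gene P2rx4 by 1.43 (Thio 1, 1.88), whereas P2rx1 fell by 2.38 (Thio 1, -3.19).

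Genes of the alternatively activated state, which IL-4 induces, were split without added IL-4: 10 of 28 rose and 9 fell (10 and 7 on Thio 1 alone). Arg1, the arginase that marks this state, had levels of 3.28, 2.96 and 3.80 on the PBS arrays and 3.71, 3.28 and 3.98 on Thio 1, 2 and 3. The groups overlapped, and its difference of 0.31 (SE 0.21, adjusted p = 0.25, and 0.36 for Thio 1) was not called. Retnla (RELM alpha) fell by 3.36 (SE 0.11, and -3.37 for Thio 1), while Chil3 (Ym1) rose by 2.99 (SE 0.19, and 2.91 for Thio 1), and for each gene the arrays of the groups lay far apart. Tgm2, a transglutaminase, rose by 3.39 (Thio 1, 3.41), and Ucp1 fell by 3.28 (Thio 1, -2.48). The median of the list was 0.24 and just below 0 in the authors' deposited table (-0.01).

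Several of the largest differences were in genes outside the lists. Npy, which encodes the neuropeptide Y precursor, never stood well above background in PBS and was at least 448-fold higher with thioglycollate (adjusted p = 4.6e-10; slide 1, 2.5e-05). Its Thio levels were 3.56, 3.35 and 3.06. The creatine transporter gene Slc6a8 had levels of -3.11, -2.56 and -2.76 on the PBS arrays and 5.16, 4.75 and 4.58 on Thio 1, 2 and 3, a difference of 7.64 (SE 0.20, adjusted p = 4.6e-10) and of 7.97 on Thio 1. Galnt6, which starts O-linked sugar chains, rose by 7.81 (Thio 1, 8.21) and its other probe by 5.42. Lhfpl2 rose from -5.01, -5.51 and -4.75 to 5.15, 4.66 and 4.68 (9.92, SE 0.64, adjusted p = 2.8e-07, and 10.25 for Thio 1).

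Arhgap22, a regulator of the GTPase RAC1, rose by 7.37 (Thio 1, 7.74), being well above background on 2 of 3 PBS arrays. Vsig8 was so on 1 of 3, and its fitted rise of 7.60 (Thio 1, 7.99) rests in part on signals near background. For podoplanin, Pdpn, the brightest probe never passed the background flag in PBS, with a rise of at least 683-fold, and the other differed by 2.54. In the other direction, Hspa12a, a distant relative of the heat shock protein HSP70, never stood well above background in Thio and was at least 78-fold lower there (adjusted p = 6.4e-07; slide 1, 2.1e-06). Counting a gene as dim only where all its probes were, 238 genes stood well above background on all Thio arrays but on no PBS array, 21 of them with a bound of at least 10-fold. The reverse held for 13 genes, 6 of them with such a bound.

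For some called genes Thio 1 lay among the PBS arrays. The 8 called genes with the widest gap between Thio 1 and the mean of Thio 2 and 3 were Olfr65, Olfr212, Rdh16f2, Skint8, Olfr1197, Lypd4, Olfr584 and Syn2. Olfr65, an olfactory receptor gene, had levels of -3.90, -5.04 and -4.59 on the PBS arrays and -4.42, 0.70 and 0.60 on Thio 1, 2 and 3. Thio 1 lay among the PBS arrays, and all 4 arrays given thioglycollate with IL-4 complex, which shared slide 2, lay at 0.40 to 0.76. For Olfr65, Olfr1197 and Lypd4 the difference of Thio 1 was 0.10, 0.02 and 0.09, and for the other 5 it was below 0, from -0.44 to -0.12.

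Olfactory receptor genes as a family, looked at after these values were seen, gave 162 of 1008 higher and 128 lower. Their median level was -4.18 to -3.66 on the 8 arrays of slide 1, with -3.94 on Thio 1, and -3.26 to -3.12 on the 6 arrays of slide 2. The median difference of the family was 0.04, and 0.13 for Thio 1 alone, where 115 were higher and 59 lower. The 3818 genes of any kind with a mean level below -4 had a median difference of 0.63, with 0.03 for Thio 1 and 1.08 for Thio 2 and 3. The next 4308 genes, from -4 to -2, had medians of 0.08 for Thio 1 and -0.01 for Thio 2 and 3. For the dimmest genes, treatment and slide cannot be told apart from the Thio 2 and 3 arrays, and the values of Thio 1 are the ones from a single slide.

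**Figure D4:**
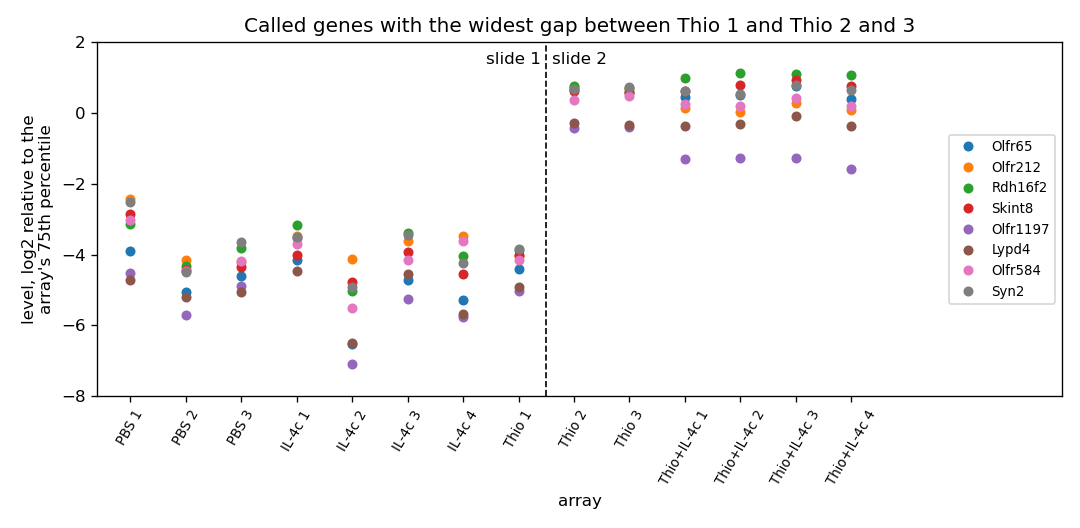
Level (log2 relative to the array's 75th percentile) of the 8 genes with the widest gap between Thio 1 and Thio 2 and 3, on all 14 arrays in slide order, with a dashed line between the slides. Thio 1 lies with the PBS and IL-4c arrays of slide 1, and every array of slide 2 lies above every array of slide 1 for each gene.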

How the data were processed

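RNA of sorted peritoneal macrophages was measured on 14 single-dye Agilent arrays, 6 of which (3 PBS and 3 Thio, grouped by their treatment label) are compared here. The authors deposited 1 scanner table per array with spot intensities, extracted and background-subtracted with Feature Extraction 11.0.1.1 per the file headers, while the submitters' processing notes name version 11.5 and limma. The authors' deposited log2 table of the same arrays, used as an alternative, has a median of 9.2341 on each array, and its log base and background correction are not given in the sources used here.

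Of 62976 spots 3671 controls and 113 to 165 outlier spots per array were left out, and no spot was saturated. Probes were named by accession through a RefSeq table of GRCm38.p6, which gave 27235 of 55681 probes a symbol (20660 symbols). Values were log2 processed signal minus the array's 75th percentile, spots averaged per probe, with probes kept that passed the scanner's background flag on at least 3 arrays and each gene taken at its brightest probe over the 14 arrays. The test was that of limma 3.58.1 (R 4.3.3) on all 14 arrays, with 1 mean per group, two-sided, and Benjamini-Hochberg adjustment. The slide 1 fit held 8 arrays and 5 residual degrees of freedom. The fits were also run on simulated data that held no slide effect, so that run does not bear on treatment against slide. Gene names came from a rule that returned 178 genes: the 12 largest rises and 12 largest falls without overlap between arrays, up to 3 rises and 3 falls per list for 28 lists of macrophage programs, index genes, and 8 genes with a gap between Thio 1 and the other Thio arrays. The text takes a selection of them and adds genes with promoter motifs. A further 9 lists mark other cells and handling. Members, lists and the rule were chosen with earlier results of these data known. Alternatives covered slide, samples, scaling, probe choice, weights and left-out arrays. The number of arrays limits the precision.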

Additional observations from a re-analysis of the deposited data

How the results depend on the processing

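The count of 9052 called genes was 6003 with slide as a fixed block, 5844 with slide as a random block (correlation 0.763), 3919 with only the 6 PBS and Thio arrays, and 15096 with array weights, which gave Thio 1 a weight of 0.056. Leaving out 1 array gave 6231 to 13876 calls, the latter without Thio 1, where treatment and slide cannot be told apart. It gave 6026 to 6736 in the slide 1 comparison, against 6828. The share of calls that were higher was 45.5%, and 37.3% with normexp on the median signals, 39.5% with median centring and 40.3% in the authors' table, where the median difference over all genes was -0.17, -0.23 and -0.18. It was 49.1% with slide as a random block, 51.2% with slide as a fixed block and 53.7% on the slide 1 arrays. Of 175 genes given a value 168 were called, and 146 of these kept direction and call in every alternative run.

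Itgb3 stood at 0.078 on the mean of its probes, and Gla at 0.11 and Lamp1 at 0.45 under quantile normalization. Gaa stood at -0.071 with array weights and at -0.013 to 0.28 over the left-out arrays. With slide as a block, and on slide 1 alone, Olfr212 stood at -0.44, Rdh16f2 at -0.13, Skint8 at -0.12, Olfr584 at -0.27 and Syn2 at -0.29. For these the cause was not tested beyond the choice itself. Normexp on mean signals, planned at first, was not run, and median signals were used in its place, a choice made after seeing the files.

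Deviations of PBS and Thio arrays from their group mean gave no sign of pairing by replicate number. Arrays with the same number correlated at -0.36, -0.36 and 0.02, and arrays with different numbers at -0.38 to 0.41. The Thio deviations also hold the gap between Thio 1 and the slide 2 arrays, so this check cannot exclude pairing. With the replicate number as a block 7744 genes were called.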
